A study of Mus musculus with 36 samples.

Results

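The 9 genes described here are feedback regulators of NF-kB and STAT3 signalling: Nfkbia, Nfkbiz, Bcl3, Tnfaip3, Relb, Nfkb2, Osmr, Stat3 and Socs3. They were chosen by symbol among the 36799 gene names of the array, and each was read from its brightest probe. All 9 were well above background on all 36 arrays and all 9 passed the filter that left 23256 genes for testing. Lung RNA came from 29 female C57BL/6 mice of 5 to 7 weeks of age. Each received 1 dose of tube-shaped TiO2 nanoparticles into the trachea: 0 µg as the control, 18, 54 or 162 µg. Lungs were taken at day 1 (4 control mice, and 3, 3 and 4 mice at 18, 54 and 162 µg) or at day 28 (3 control mice, and 4 mice at each of 18, 54 and 162 µg). RNA came from random sections of frozen whole lung, so a lower value can mean fewer cells of a type or less RNA per cell, and these cannot be told apart. The labels speak of 5 lungs per group, and 3 or 4 are analysed here. For 1 mouse at 162 µg the title gives day 1 and the time label day 28, and it is counted here as replicate 1 of day 28.

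NF-kB is held in the cytoplasm by inhibitory IkB proteins. Inflammatory receptors trigger destruction of the inhibitor, and the freed NF-kB dimer switches on, among many targets, the genes of its own inhibitors. Nfkbia encodes IkBa, the inhibitor that is made anew within this loop, and Tnfaip3 encodes A20, a ubiquitin-editing enzyme that shuts the receptor complex down. STAT3 acts downstream of receptors that share gp130, such as the oncostatin M receptor Osmr, and induces Socs3, which blocks the receptor's kinases. In the lung both pathways are active in macrophages, epithelium and other cells during the response to inhaled particles.

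The sequences near the starts of these genes are shown because a feedback gene is itself a target of its pathway. Of the 7 members with an entry in the promoter table, 4 hold a match to the kappaB consensus, the DNA element that NF-kB dimers bind. Sequences are from RefSeq (GRCm38.p6) and span 250 bases before to 50 bases after an annotated start. The table holds no entry for Relb or Nfkbiz. The kappaB consensus was searched on both strands, and 8.46% of all 32851 promoters hold a match. Nfkbia, Tnfaip3, Bcl3 and Nfkb2 have one in 6 of the 10 member entries. The shorter STAT site TTCNNNGAA, which reads the same on both strands, occurs in 8.3% of the promoters and was found in Socs3 and in the first of 3 Nfkb2 entries. No match to either element was found in these windows of Stat3 and Osmr. A match is a stretch of letters and says nothing about binding in these lungs. The 4 sequences printed are those of Tnfaip3, the member with the largest change at 162 µg and day 1, Nfkbia, the classic inhibitor, Nfkb2, which holds both elements, and Socs3. They lie at chr10:19015361-19015660 (Tnfaip3, minus strand), chr12:55492598-55492897 (Nfkbia, minus strand), chr19:46304487-46304786 (Nfkb2, plus strand) and chr11:117969317-117969616 (Socs3, minus strand). Each is given 5′ to 3′ along the gene's own strand. Capitals mark kappaB matches in Tnfaip3 and Nfkbia, both kinds in Nfkb2 (the STAT site comes first, and the next run holds an overlapping pair of kappaB matches), and the STAT site in Socs3.
Tnfaip3: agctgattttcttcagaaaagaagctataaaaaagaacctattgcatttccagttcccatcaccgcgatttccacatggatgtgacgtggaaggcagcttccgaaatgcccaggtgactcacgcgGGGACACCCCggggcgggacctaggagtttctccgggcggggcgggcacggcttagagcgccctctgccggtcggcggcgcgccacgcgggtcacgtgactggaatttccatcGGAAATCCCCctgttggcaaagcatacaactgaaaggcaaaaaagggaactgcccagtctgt
Nfkbia: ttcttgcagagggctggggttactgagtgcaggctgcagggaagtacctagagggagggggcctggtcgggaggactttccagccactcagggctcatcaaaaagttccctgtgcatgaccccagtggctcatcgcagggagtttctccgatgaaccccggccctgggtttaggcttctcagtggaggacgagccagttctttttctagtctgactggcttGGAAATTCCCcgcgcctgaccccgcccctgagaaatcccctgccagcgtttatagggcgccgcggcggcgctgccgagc
Nfkb2: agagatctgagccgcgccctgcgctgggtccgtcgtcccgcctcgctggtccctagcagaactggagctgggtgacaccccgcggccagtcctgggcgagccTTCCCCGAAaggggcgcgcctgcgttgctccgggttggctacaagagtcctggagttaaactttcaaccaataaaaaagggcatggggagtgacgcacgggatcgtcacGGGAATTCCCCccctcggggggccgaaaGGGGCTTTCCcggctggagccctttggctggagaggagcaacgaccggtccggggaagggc
Socs3: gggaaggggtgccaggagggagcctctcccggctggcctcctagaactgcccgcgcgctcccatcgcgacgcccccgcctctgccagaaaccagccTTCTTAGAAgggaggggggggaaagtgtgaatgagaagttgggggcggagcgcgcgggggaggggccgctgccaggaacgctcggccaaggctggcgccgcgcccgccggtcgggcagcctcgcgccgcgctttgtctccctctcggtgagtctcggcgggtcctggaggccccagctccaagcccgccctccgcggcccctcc

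Each value below is a log2 ratio: the lung signal (Cy5) over the signal of a common reference RNA from 11 mouse cell lines (Cy3), so 0 means equal signal. Markers of lung were high in every group: alveolar type II genes averaged 5.82 to 6.19 and endothelial genes 4.01 to 4.43 above the reference on the log2 scale. On 12 of the 36 arrays skeletal muscle transcripts stood apart. The mean log2 Cy5 intensity of 13 muscle genes was 10.6 to 15.2 on these muscle arrays and 6.61 to 7.75 on the other 24. At day 1 a muscle array was present in 4 of 4 control mice, 1 of 3 at 18 µg, 1 of 3 at 54 µg and 1 of 4 at 162 µg. At day 28 it was present in 0 of 3 control mice, 1 of 4 at 18 µg, 3 of 4 at 54 µg and 0 of 4 at 162 µg. In 7 of the mice with a muscle array, 8 squamous epithelium genes were also high, with a mean log2 ratio of 1.72 to 4.11. The day 28 comparison of 162 µg with control is thus the one in which no muscle array takes part. In the 5 groups that hold both kinds of mice, Relb and Osmr were lower in the mice with a muscle array in 5 of 5 groups, by a mean log2 difference of -0.32 for Relb and -0.36 for Osmr. For Nfkbia that mean difference was -0.46, for Tnfaip3 -0.25 and for Stat3 -0.28, each lower in 4 of 5 groups. Bcl3 (-0.17) and Nfkb2 (-0.19) were also lower in 4 of 5 groups, Socs3 in 3 of 5 and Nfkbiz in 1 of 5. In each of these groups 1 kind was represented by 1 mouse only. Control replicate 1 of day 1 had an array of each kind, and on its muscle array Nfkbia was 0.97 lower than on the other one, Relb 0.61 lower and Tnfaip3 0.55 lower on the log2 scale. Osmr (0.49), Stat3 (0.39) and Nfkb2 (0.24) were lower there too, whereas Nfkbiz was 0.51 higher, Bcl3 0.1 higher and Socs3 0.03 higher.

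At day 1 after 162 µg, Tnfaip3, Osmr and Relb rose, and no regulator fell. Tnfaip3 changed most, by 1.89-fold. These 3 of 9 compare with 1.5% of all 23256 genes that rose at an adjusted p under 0.05 (350 genes). The median log2 change of the 9 was 0.61, against 0.006 over all genes tested, and 8 of the 9 changes were positive. An unadjusted p under 0.05 was found for 7 of the 9, against 12.9% of all genes. In 3 of the 9 the 162 µg and control lungs did not overlap, with all 162 µg lungs higher, which holds for 4.21% of all genes. P-values here rest on the spread between mice within a group, pooled over all 8 groups of both days.

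Among the inhibitors, Tnfaip3 had log2 ratios of 0.66, 0.99, 0.46 and 0.38 in the 162 µg lungs, against -0.23, -0.53, -0.09 and -0.33 in the control lungs. Every 162 µg lung lay above every control lung, the lung with the muscle array included. The log2 change was 0.92 (SE 0.14, 95% interval 0.63 to 1.20, limma adjusted p = 0.000406, n = 4 against 4). On the 5 slides, each of which held arrays of both groups, the difference was 0.55 to 1.52, and with slide as a block the limma adjusted p was 0.00139. Nfkbia ranged from 0.87 to 1.76 in the 162 µg lungs and from 0.18 to 1.51 in the control lungs. Its groups overlapped, with control replicates 1 (1.51) and 3 (0.97) above the lowest 162 µg lung. Its log2 change of 0.55 (SE 0.27) had a limma adjusted p of 0.404. Bcl3, an atypical IkB protein of the nucleus that works with p50 and p52 dimers, measured -0.14, -0.23, -0.67 and 0.06 in the 162 µg lungs, against -0.86, -0.60, -0.31 and -0.52 in the control lungs. The lowest 162 µg lung, replicate 3, is the one with a muscle array and lay among the controls. The log2 change of Bcl3 was 0.33 (SE 0.14, limma adjusted p = 0.302). Nfkbiz encodes IkBz, a nuclear IkB that acts as a co-activator of a subset of NF-kB targets, Il6 among them. It was the member with a negative change: -1.20, -1.77, -1.43 and -1.36 in the 162 µg lungs, against -1.35, -1.64, -1.22 and -0.87 in the control lungs. These values overlapped widely, with a log2 change of -0.17 (95% interval -0.47 to 0.13, limma adjusted p = 0.682).

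Relb and Nfkb2 encode the partners of the non-canonical NF-kB dimer, RelB and p100, where p100 also holds RelB back until it is cut to p52. Relb measured 0.36, 0.24, -0.22 and -0.03 in the 162 µg lungs, against -0.46, -0.63, -0.43 and -0.57 in the control lungs. All 162 µg lungs were above all controls, and the lowest of them was again replicate 3. Its log2 change was 0.61 (SE 0.15, 95% interval 0.29 to 0.92, limma adjusted p = 0.0388), a 1.52-fold rise that was 0.20 to 1.04 within the 5 slides. A second, dimmer Relb probe gave 0.52 and correlated with the first at r = 0.980 over the 29 mice. Nfkb2 measured -0.46, -0.42, -1.10 and -0.82 in the 162 µg lungs, against -1.33, -0.92, -1.61 and -1.52 in the control lungs. Replicate 3 alone fell below the highest control. The log2 change of Nfkb2, 0.64 (SE 0.19), was larger than that of Relb and had a limma adjusted p of 0.0875. The within-group SD was 0.27 for Nfkb2 and 0.22 for Relb.

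On the STAT3 side, Osmr, the receptor chain for oncostatin M, measured 0.10, 0.02, -0.59 and 0.13 in the 162 µg lungs, against -0.80, -0.94, -0.62 and -0.63 in the control lungs. Of the 162 µg lungs 3 lay together near 0, and replicate 3, with the muscle array, lay just above the highest control. The log2 change was 0.67 (SE 0.15, 95% interval 0.35 to 0.98, limma adjusted p = 0.0199), a 1.59-fold rise. It was 0.03 to 0.98 within the slides, and with slide as a block the adjusted p was 0.0134. Stat3 itself ranged from 1.1 to 1.46 in the 162 µg lungs and from 0.75 to 1.27 in the control lungs, a log2 change of 0.30 (SE 0.13, limma adjusted p = 0.338). Its second probe is dim, and tracked the first at r = 0.499 over the 29 mice. Socs3 measured -0.03, 1.59, -0.67 and 0.24 in the 162 µg lungs, against -0.77, -0.54, -0.62 and -0.54 in the control lungs. In log2 ratio 1 lung, replicate 2, stood far above the rest, 2 were moderately above the controls and replicate 3 lay among them. In log2 Cy5 intensity replicate 2 had 12.35, close to 12.14 in replicate 1 and 12.3 in replicate 4. Its high ratio thus went with a low reference (Cy3) signal, and the reason was not tested. The log2 change of Socs3, 0.90 (SE 0.26, 1.87-fold), was the second largest of the 9, and its adjusted p was 0.088. Without replicate 2 it was 0.47 (limma adjusted p = 0.252). The same replicate 2 had the highest Tnfaip3 value and the lowest Nfkbiz value of the 4 lungs.

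**Figure D1:**
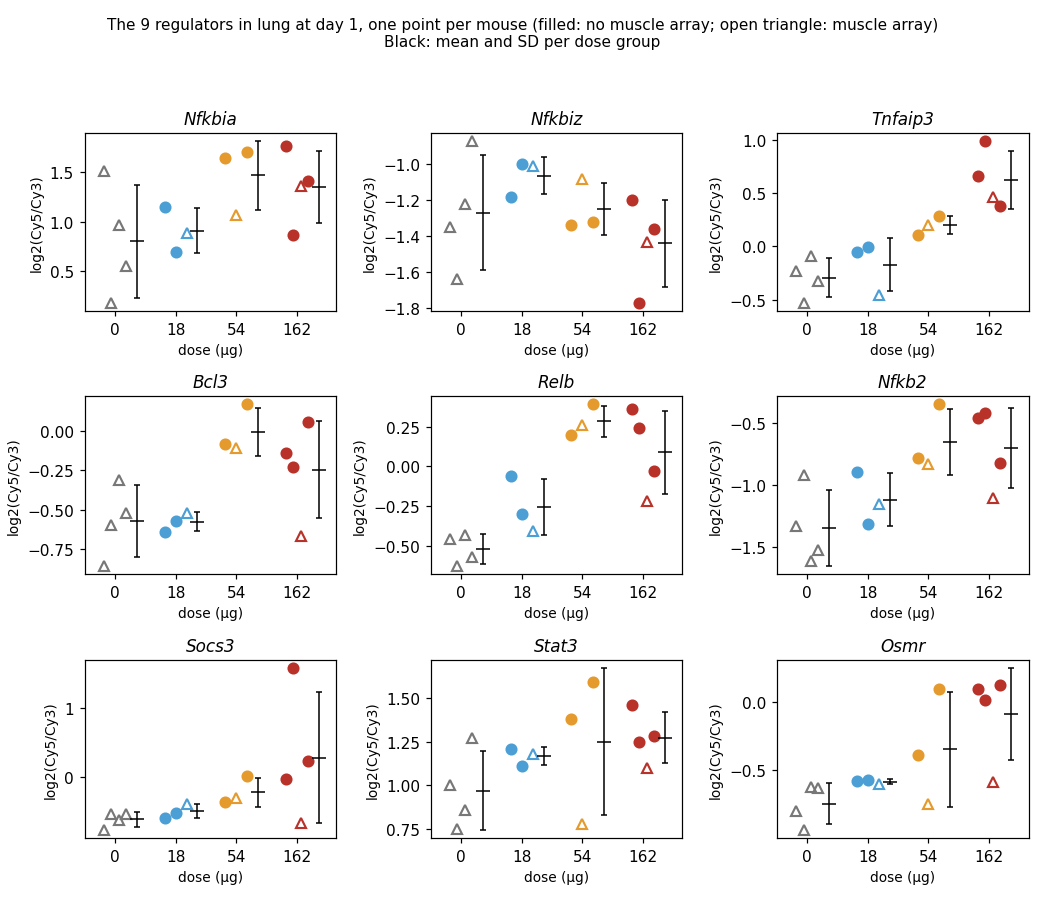
Log2 ratio of lung over reference RNA for each of the 9 regulators at day 1 (y axis, log2 scale) by dose in µg (x axis), with 1 point per mouse and the group mean and SD in black. Filled circles are mice with no muscle array and open triangles mice with one, which include all 4 control mice. For Tnfaip3, Relb and Osmr every 162 µg lung lies above every control lung, and for Socs3 one 162 µg lung reaches 1.59.

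Since all 4 control mice of day 1 had a muscle array, the rises at day 1 were also computed without those arrays. This leaves 3 mice at 162 µg and 1 control mouse, replicate 1 with its other array, which is assumed to vary like the other groups. Osmr then changed by 0.64 on the log2 scale (limma adjusted p = 0.0469). Tnfaip3 changed by 0.64 (adjusted p = 0.127) and Relb by 0.34 (adjusted p = 0.379), and neither passed. Bcl3 changed by 0.81 and passed (adjusted p = 0.0188). Nfkbia turned to -0.64 (adjusted p = 0.321), with 1.99 on that 1 control array. With the muscle and squamous epithelium scores as covariates and all mice kept, Tnfaip3 (0.79, adjusted p = 0.000881) and Osmr (0.54, adjusted p = 0.018) passed, and Relb (0.45, adjusted p = 0.0661) did not. With replicate 3 of 162 µg left out, Socs3 (1.22, adjusted p = 0.00269), Nfkb2 (0.78, adjusted p = 0.0222) and Bcl3 (0.47, adjusted p = 0.0447) passed beside the other 3, all by limma. With 1 mouse left out in turn, Tnfaip3 kept its call each time, whereas Relb lost it in 7 of 8 cases (adjusted p up to 0.177) and Osmr in 5 of 8 (up to 0.0996). Relb also missed the threshold with the authors' deposited table (adjusted p = 0.0525) and without the filter on dim probes (0.0511), and Osmr with the scanner's log ratio (0.0504). None of the 3 passed with median centring in place of loess, or with only these 8 mice in the fit, where Tnfaip3 had an adjusted p of 0.0794 and 0.0734 in that order.

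**Figure D2:**
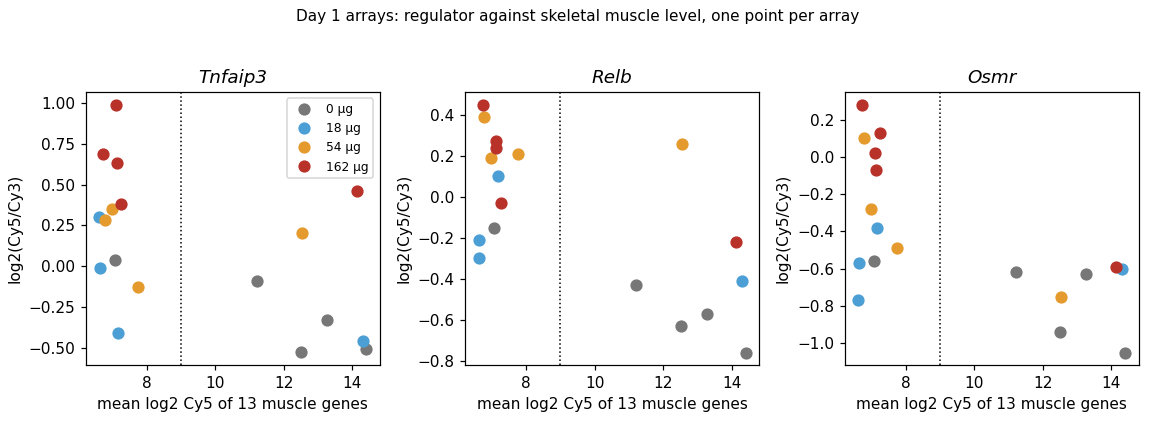
Log2 ratio of Tnfaip3, Relb and Osmr (y axes) against the mean log2 Cy5 intensity of 13 skeletal muscle genes (x axis) on each array of day 1, with 1 point per array coloured by dose and the dotted line at the threshold of 9. To the right of the line stand 4 arrays of control mice and 1 array of each other dose, and to the left stand 1 control array, 3 arrays each of 18 and 54 µg and 4 of 162 µg.

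The median change of the 9 at day 1 was smaller at the lower doses. Relb, Nfkb2, Bcl3, Nfkbia and Nfkbiz nevertheless had higher means at 54 than at 162 µg. All doses share the same 4 control mice. At 54 µg none of the 9 passed, and 0.0516% of all genes did (12 genes, all higher). All 9 changes were positive, with a median log2 change of 0.49, against 0.001 over all genes, and 6 of the 9 had an unadjusted p under 0.05, against 7.64% of all genes. Relb was 0.20, 0.26 and 0.39 in the 54 µg lungs, above every control lung and in or above the upper range of the 162 µg lungs. Its log2 change, 0.80 (SE 0.17, limma adjusted p = 0.0918), was the largest of the 9 at this dose. Tnfaip3 was 0.11, 0.20 and 0.28 in the 54 µg lungs, and Bcl3 was -0.08, -0.11 and 0.17. Both lay above all control lungs, as did Nfkb2 at -0.78, -0.83 and -0.35 and Socs3 at -0.37, -0.31 and 0.02. Groups did not overlap for these 5 of 9 members, against 5.34% of all genes with 54 µg higher. Osmr was -0.39, -0.75 and 0.10 at 54 µg, and replicate 2, with the muscle array, lay among the controls.

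At 18 µg the members stayed near the control level. None of the 9 passed, nor did any of the 23256 genes by limma (0%), and 0 of the 9 had an unadjusted p under 0.05, against 4.08% of all genes. The log2 changes ran from -0.0003 for Bcl3 to 0.27 for Relb, with a median of 0.17. Relb (-0.06, -0.30 and -0.41) and Osmr (-0.58, -0.57 and -0.60) lay above all control lungs in the 18 µg lungs, which 3.7% of all genes did.

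The group means of Tnfaip3 at day 1 increased with dose, though its 18 µg and control lungs overlapped. Its log2 mean ± SD was -0.30 ± 0.18 (n = 4) in control lungs, -0.18 ± 0.25 (n = 3) at 18 µg, 0.19 ± 0.08 (n = 3) at 54 µg and 0.62 ± 0.27 (n = 4) at 162 µg. All control mice here had a muscle array. On slide 1, where no array of day 1 was a muscle array, the order differed. There Tnfaip3 was 0.04 in control, -0.41 at 18 µg, -0.13 at 54 µg and 0.69 at 162 µg, with 1 array each. Each 162 µg lung was above each 54 µg lung, with a log2 difference of 0.43 (SE 0.15) that did not pass (limma adjusted p = 0.664, 0.0043% of genes higher). Groups did not overlap for this 1 of 9 members, against 3.69% of all genes with 162 µg higher. Against 18 µg the difference was 0.80 (SE 0.15, adjusted p = 0.00347), and Tnfaip3 was the 1 member of 9 to pass, against 1.68% of all genes that were higher. Without replicate 3 of 18 µg it was 0.66 with an adjusted p of 0.0541. Relb, Nfkb2, Bcl3, Nfkbia and Nfkbiz were lower on average at 162 than at 54 µg, by 0.05 to 0.24 on the log2 scale, and no difference passed.

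At day 28 after 162 µg none of the 9 passed at an adjusted p under 0.05, as 0.623% of all genes did with higher values (145 genes). Of the 9 changes 8 were positive, with a median log2 change of 0.30, against 0.001 over all genes. In 5 of 9 members, Nfkbia, Tnfaip3, Relb, Stat3 and Osmr, every 162 µg lung was above every control lung, which holds for 5.93% of all genes. The same 5 had an unadjusted p under 0.05, against 3.43% of all genes with higher values. No muscle array takes part on either side.

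Tnfaip3 measured 0.66, 0.48, 0.51 and 0.42 in the 162 µg lungs of day 28, against -0.35, -0.03 and 0.16 in the control lungs. The treated lungs lay close together, and the controls spread more widely. The log2 change was 0.59 (SE 0.15, 95% interval 0.28 to 0.90, limma adjusted p = 0.0777, n = 4 against 3). Osmr measured -0.10, -0.03, 0.05 and -0.10 in the 162 µg lungs, against -0.50, -0.54 and -0.55 in the control lungs, and both groups were tight. Its log2 change was 0.49 (SE 0.17, limma adjusted p = 0.446). Relb measured 0.49, 0.34, 0.30 and 0.27 in the 162 µg lungs, against -0.07, -0.12 and -0.28 in the control lungs, a log2 change of 0.50 (SE 0.17, limma adjusted p = 0.39). For both genes the gap between the groups was wider than either group's range. Their errors rest on the spread pooled over all 8 groups, with a within-group SD of 0.22 for each gene. That is larger than the SD of Osmr (0.07 and 0.02) and of Relb (0.10 and 0.11) in the 162 µg and control lungs of day 28.

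Nfkbia measured 1.57, 1.65, 1.15 and 1.5 in the 162 µg lungs, against 0.60, 0.99 and 0.82 in the control lungs, and the groups did not overlap. It had the largest log2 change of the 9 at day 28, 0.67, with the largest error among these 5 (SE 0.30, limma adjusted p = 0.896). Stat3 measured 1.45, 1.43, 1.51 and 1.41 in the 162 µg lungs, against 1.12, 1.23 and 1.1 in the control lungs. Both groups were tight, with an SD of 0.04 at 162 µg and 0.07 in control lungs, and they did not overlap. The log2 change was 0.30 (SE 0.15, unadjusted p = 0.0495, limma adjusted p = 1 after rounding). Bcl3 ranged from -0.18 to 0.15 in the 162 µg lungs and from -0.37 to -0.07 in the control lungs, and Nfkb2 from -1.24 to -0.87 and from -1.49 to -1.01 in the same groups. Socs3 was -0.52 to -0.22 in the 162 µg lungs and -0.60 to -0.37 in the control lungs, with a log2 change of 0.10 (95% interval -0.49 to 0.68). No lung of day 28 came near the Socs3 log2 ratio of 1.59 seen in 1 lung at day 1. This did not hold for the lung signal alone. The log2 Cy5 intensity was 12.24 in replicate 2 of 162 µg at day 28, against 12.35 in that day 1 lung. Nfkbiz was again the negative one, at -1.30 to -1.14 in the 162 µg lungs and -1.15 to -0.89 in the control lungs, with a log2 change of -0.21 (95% interval -0.54 to 0.11).

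**Figure D3:**
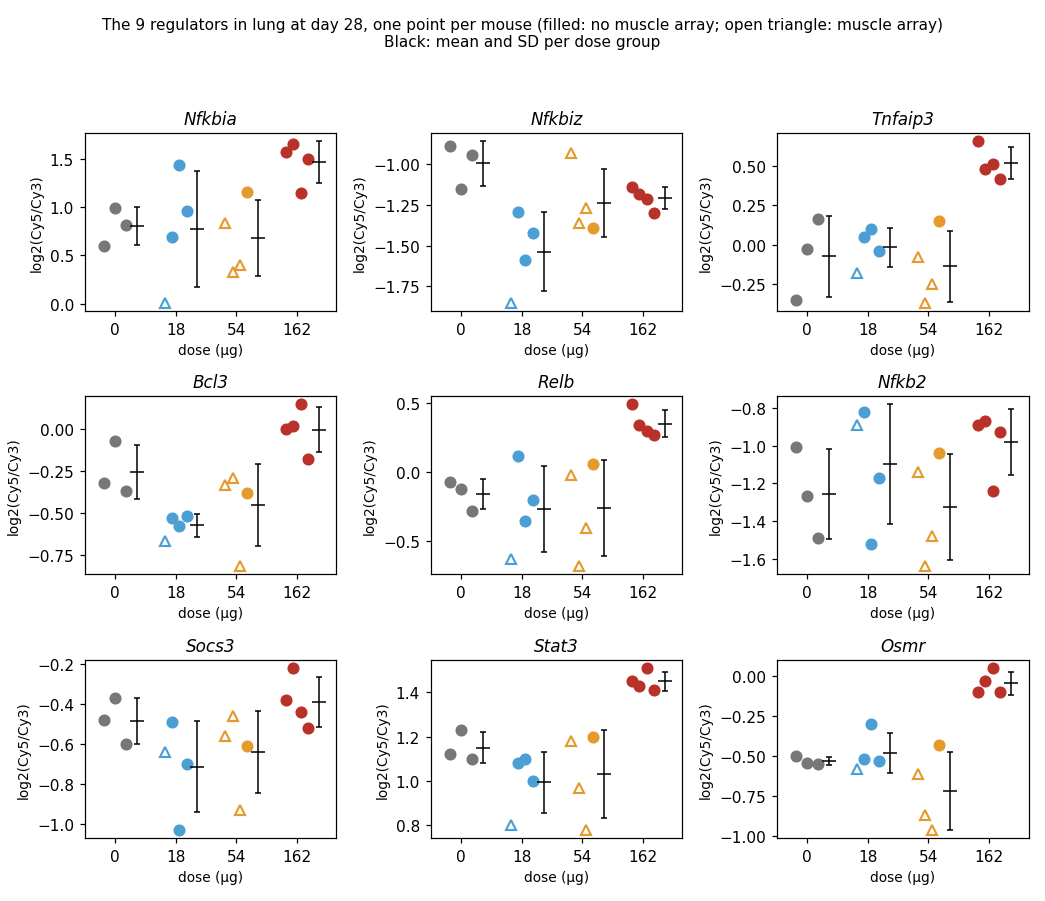
Log2 ratio of lung over reference RNA for each of the 9 regulators at day 28 (y axis) by dose in µg (x axis), with 1 point per mouse and the group mean and SD in black. Filled circles are mice with no muscle array, among them all 162 µg and control mice, and open triangles mice with one. For Nfkbia, Tnfaip3, Relb, Stat3 and Osmr the 4 lungs at 162 µg lie above the 3 control lungs.

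Neither lower dose stood above control at day 28. At 54 µg all 9 changes were negative, from -0.24 for Nfkbiz to -0.07 for Tnfaip3, with a median of -0.12 against -0.02 over all genes. None passed, nor did any of the 23256 genes by limma, and 0 of the 9 had an unadjusted p under 0.05, against 6.15% of all genes. Muscle arrays were present in 3 of 4 mice at 54 µg and in no control mouse. Without muscle arrays, 1 mouse remained at 54 µg, and the median over the 9 was 0.10. At 18 µg Nfkbiz measured -1.85, -1.29, -1.59 and -1.42, below all control lungs at -0.89, -1.15 and -0.94. Its log2 change of -0.54 (SE 0.16) had an unadjusted p of 0.00211 and a limma adjusted p of 0.892. Bcl3 and Stat3 also lay below all controls at 18 µg, and these 3 of 9 compare with 2.64% of all genes. For Stat3 this is close to a tie: the highest 18 µg lung and the lowest control lung were both 1.1 and differed by -0.001. Its within-group SD was 0.19. No member and none of the 23256 genes passed, and 2 of the 9 had an unadjusted p under 0.05, against 4.33% of all genes.

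Set against the lower doses of day 28, the 162 µg lungs were higher in all 9 members. Against 54 µg, Tnfaip3 (0.66, SE 0.14, limma adjusted p = 0.0141) and Osmr (0.67, SE 0.15, adjusted p = 0.0254) passed, 2 of 9 against 1.01% of all genes. Tnfaip3 ranged from 0.42 to 0.66 in the 162 µg lungs and from -0.37 to 0.15 in the 54 µg lungs, and Osmr from -0.10 to 0.05 and from -0.96 to -0.43 in these groups. Groups did not overlap for 5 of 9 members, against 5.34% of all genes. Without muscle arrays 1 mouse remained at 54 µg, and the differences were 0.37 for Tnfaip3 (adjusted p = 0.9998) and 0.39 for Osmr (adjusted p = 0.826), neither past the threshold. With the mouse of conflicting day labels left out, Tnfaip3 had an adjusted p of 0.0579 and Osmr of 0.0516.

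Against 18 µg, Bcl3 passed (0.57, SE 0.14, limma adjusted p = 0.0378), 1 of 9 against 1.01% of all genes. It was 0.00, 0.02, 0.15 and -0.18 in the 162 µg lungs, against -0.67, -0.53, -0.58 and -0.52 in the 18 µg lungs. All 4 lungs at 162 µg were above all 4 at 18 µg, as in 5 of 9 members and 4.41% of all genes. Relb differed by 0.61 (adjusted p = 0.0527) and Tnfaip3 by 0.54 (adjusted p = 0.0627). Leaving out the mouse of conflicting day labels took the adjusted p of Bcl3 to 0.0985, and leaving out the muscle array mouse of 18 µg, replicate 1, took it to 0.144. Bcl3 lost its call in 7 of the 8 cases with 1 mouse left out.

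**Figure D4:**
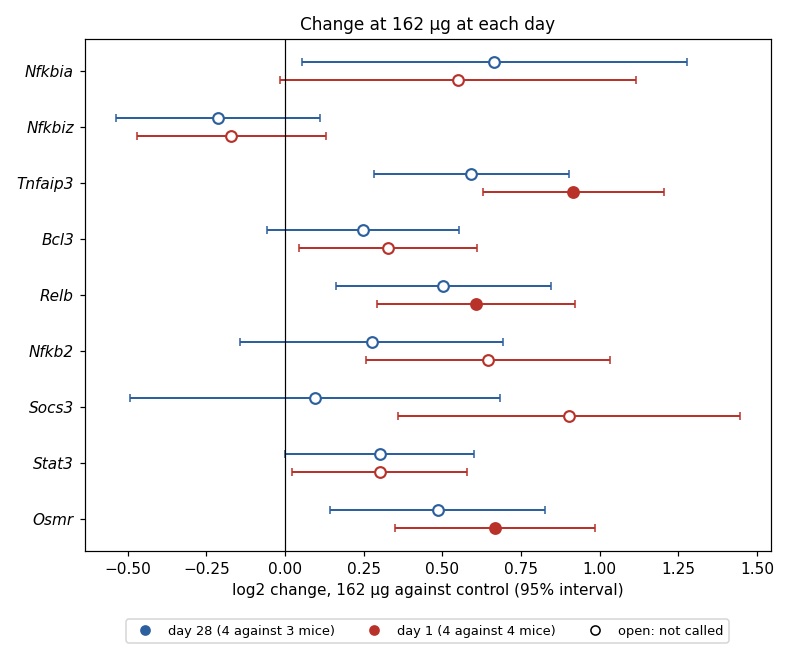
Log2 change at 162 µg against control (x axis, with 95% intervals) of each of the 9 regulators (y axis) at day 28 in blue and at day 1 in red. Filled points passed an adjusted p under 0.05. The intervals of the 2 days overlap for every regulator, and the filled points are Tnfaip3 (0.92), Osmr (0.67) and Relb (0.61) at day 1.

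The change at 162 µg at day 28 was compared with that at day 1 as a difference of the 2 changes. No member passed, and 0.0258% of all genes did. Socs3 had the most negative difference, -0.81 on the log2 scale (SE 0.39, unadjusted p = 0.0483, limma adjusted p = 0.9998), the 1 of 9 with an unadjusted p under 0.05, against 3.84% of all genes. It contains the day 1 change of 0.90 for Socs3, which was 0.47 without the lung at 1.59, beside 0.10 at day 28. For Tnfaip3 the difference was -0.32 (95% interval -0.75 to 0.10), for Nfkbia 0.12 (-0.72 to 0.95) and for Stat3 -0.0008 (-0.41 to 0.41). At 54 µg all 9 differences were negative, and Relb had -0.91 (SE 0.23, unadjusted p = 0.000719, limma adjusted p = 0.489). In this comparison 5 of 9 members had an unadjusted p under 0.05, against 10.2% of all genes, and no gene passed after adjustment. At 18 µg all 9 were negative too, from -0.74 for Nfkbiz to -0.07 for Tnfaip3, with no gene past the threshold and 1 of 9 members, against 6.7% of all genes, at an unadjusted p under 0.05. These differences contain the control mice of both days. In control lungs alone, day 28 minus day 1 was positive for all 9 members, from 0.0004 for Nfkbia to 0.36 for Relb. None passed, nor did any of the 23256 genes, and 2 of the 9 had an unadjusted p under 0.05, against 4.98% of all genes. Muscle arrays were present in 0 of 3 control mice at day 28 and 4 of 4 at day 1.

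Ordered by level over the 8 groups, 162 µg of day 28 was the highest group for Bcl3, Relb, Stat3 and Osmr, 162 µg of day 1 for Tnfaip3 and Socs3, 54 µg of day 1 for Nfkb2 and, level with 162 µg of day 28, for Nfkbia. For Nfkbiz the highest group was the control of day 28 and the lowest 18 µg of day 28. The control group of day 1 was the lowest for Tnfaip3, Relb, Nfkb2, Stat3 and Osmr. Neighbours in this order mostly did not differ beyond the within-group SD: of 7 steps, 2 exceeded it for Tnfaip3, Bcl3 and Relb, 1 for Nfkbia, Nfkb2, Socs3 and Osmr, and 0 for Nfkbiz and Stat3. The whole span was 0.92 for Tnfaip3 and 1.00 for Socs3, with a within-group SD of 0.20 for Tnfaip3 and 0.39 for Socs3. The 7 mice measured on 2 arrays give a further scale of error. The median absolute log2 difference between the 2 arrays of a mouse was 0.05 for Stat3, 0.20 for Relb, 0.34 for Osmr and 0.48 for Tnfaip3. Over all genes the arrays read as 1 mouse correlated at -0.03 beyond their group. Their assignment to 1 mouse rests on the sample number in the labels alone and is in doubt, and with it the number of mice per group.

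Across the 29 mice, Stat3 and Osmr varied most alike of the 36 pairs of members (Pearson r = 0.828, and 0.787 after subtracting group means). Tnfaip3 followed Osmr at 0.806 and Relb at 0.784, or 0.389 and 0.591 within groups. Nfkbiz was the odd one, between -0.278 with Nfkb2 and 0.242 with Stat3. These are descriptions, since the mice share doses and muscle arrays. Of 15160 other genes with a symbol, Plxnb2 (r = 0.875), Birc3 (0.869) and Tapbp (0.859) had the pattern most like Relb over the 29 mice. For Nfkbia these were Bcl10 (0.807), an adaptor of the CARD signalling complex that leads to NF-kB, Birc3 (0.789), an IAP ubiquitin ligase of the TNF receptor complex, and Csrnp1 (0.784). For Socs3 they were Snrpa1 (0.848), Cxcl3 (0.845), a neutrophil attracting chemokine, and Bak1 (0.824), and the Spearman value of Snrpa1 was 0.368, so its Pearson value rests on few lungs. The mean of the 9 members was followed most closely by Vnn1 (0.939), Nek6 (0.922) and Ctsc (0.919), the last encoding cathepsin C.

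The rest of both pathways was read from 9 lists with 104 other genes, of which 97 were tested. At 162 µg and day 1, 7 of the 97 rose and none fell, against 1.5% of all genes that rose, with a median log2 change of 0.13 and 69 positive. Of these 7, 4 belong to the 11 tested inducers of NF-kB: Il1b (1.58, SE 0.36, limma adjusted p = 0.0167), Il33 (1.16, adjusted p = 0.0135), Tnf (0.70, adjusted p = 0.0148) and Tnfsf13b (0.90, adjusted p = 0.0439), the B cell survival factor BAFF, which was named after its value was seen. The others were Birc3 (0.65, adjusted p = 0.0433), 1 of 15 genes of the IKK complex, TRAF and IAP list, Ptpn2 (0.63, adjusted p = 0.00352), a phosphatase of JAK kinases and STATs and 1 of 14 in the list of SOCS, PIAS and phosphatase genes, and Cebpb (0.57, adjusted p = 0.0208), 1 of 10 STAT3 target transcription factors and kinases. In the remaining lists no gene passed. Their medians were 0.31 for 6 NF-kB subunits and other IkB genes, 0.08 for 16 other negative regulators of NF-kB signalling, -0.07 for 11 gp130 receptor and kinase genes, -0.06 for 8 gp130 ligand genes and 0.23 for 6 other STAT genes. Il6, the best known gp130 ligand, changed by 0.51 (SE 0.23, limma adjusted p = 0.346), and Nfkbie, a further IkB gene, by 0.50 (adjusted p = 0.11). The genes of lowest p in the other 3 lists were Tnip1, an A20 partner (0.34, adjusted p = 0.0968), Lifr, the receptor for LIF (-0.41, adjusted p = 0.238), and Stat2 (0.47, adjusted p = 0.193).

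At 162 µg and day 28, 2 of the 97 rose and none fell, against 0.623% of all genes that rose: Stat2 (1.11, SE 0.18, limma adjusted p = 0.0018), a transcription factor of type I interferon signalling, and Nlrc5 (0.86, SE 0.20, adjusted p = 0.0375), an NLR protein that activates MHC class I genes and is also described as a brake on NF-kB. The median over the 97 was 0.09. Birc3 stood at 0.59 (adjusted p = 0.258), Tnf at 0.45 (adjusted p = 0.61), Nfkbie at 0.49 (adjusted p = 0.422) and Ptpn2 at 0.30 (adjusted p = 0.83). Pim1, a kinase induced by STAT3, stood at 0.46 (adjusted p = 0.933), Osm, the ligand of Osmr, at 0.17 and Jak2 at 0.18, both with an adjusted p of 1 after rounding. At 18 and 54 µg none of the 97 passed on either day, and the lowest p-values at 54 µg and day 1 included those of Birc3 (0.65, adjusted p = 0.37), Tnf (0.58, adjusted p = 0.392) and Il6 (0.71, adjusted p = 0.523). Not tested, for signal too close to background, were Rel, Ripk2, Zc3h12a, Lif, Pias3, Il1a and Tnfsf11.

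**Figure D5:**
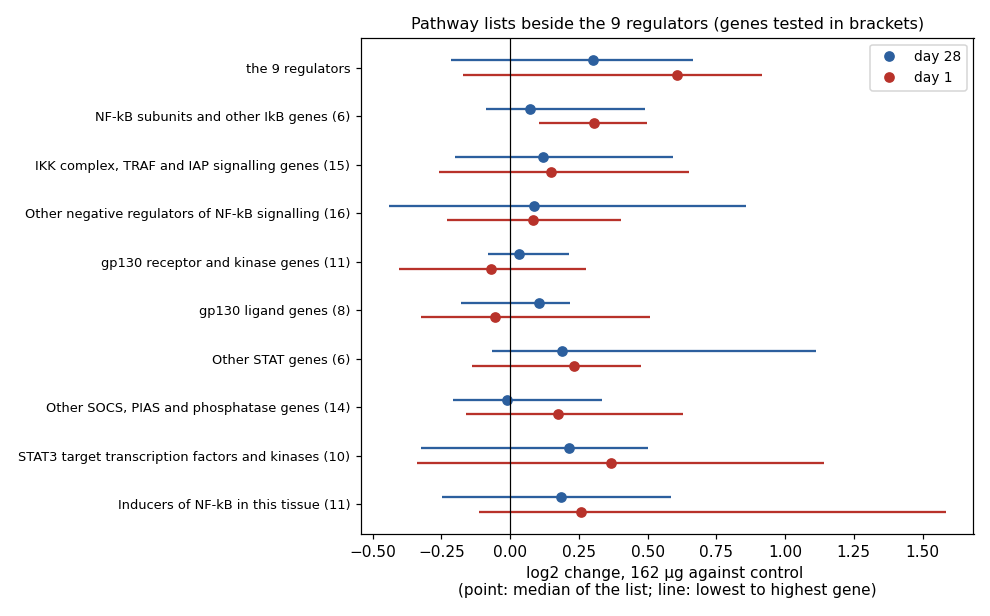
Log2 change at 162 µg against control (x axis) for the 9 regulators and 9 lists of other pathway genes (y axis, number tested in brackets), with the median as a point and the lowest to highest gene as a line, at day 28 in blue and day 1 in red. The regulators have the highest median at both days, 0.30 at day 28 and 0.61 at day 1, and the widest reach to the right at day 1 is that of the inducers, with Il1b at 1.58.

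Some markers of immune cells differed in the same comparisons. At day 1, 1 of 9 tested neutrophil markers, Mmp8 (1.01, limma adjusted p = 0.0159), 1 of 9 monocyte and macrophage markers, Cd14 (0.99, adjusted p = 0.0388), and 1 of 5 dendritic cell markers, Itgax (0.68, adjusted p = 0.027), rose at 162 µg. The mean log2 ratio of the dendritic cell list was 2.11 to 2.42 in the 162 µg lungs, against 1.68 to 1.87 in the control lungs, with no overlap. This was not particular to 162 µg: the list was 1.96 to 2.22 at 18 µg and 1.94 to 2.36 at 54 µg, also above all control lungs. Every control mouse of day 1 had a muscle array. That of the neutrophil list was 2.32 to 2.86, against 1.75 to 2.71, and that of the monocyte and macrophage list 1.38 to 1.77, against 1.11 to 1.84. At day 28, Cd68 rose (0.80, adjusted p = 0.0344), 1 of 9 in the monocyte and macrophage list. The mean of that list was 1.71 to 1.84 in the 162 µg lungs, against 1.23 to 1.39 in the control lungs, again with no overlap. No tested neutrophil or dendritic cell marker passed at day 28. None of 7 T and B cell markers passed on either day, and the mean of that list was 0.94 to 1.09 in the 162 µg lungs, against 0.73 to 1.44 in the control lungs, at day 1, and 0.64 to 1.25, against 0.79 to 1.06, at day 28. Ngp was well above background on 13 of 36 arrays and Xcr1 on 0. Immediate early genes, which respond to handling, had a mean of -1.68 to -1.08 in the 162 µg lungs of day 28, against -0.98 to -0.93 in the control lungs, and glucocorticoid response genes 0.67 to 0.90, against 0.15 to 0.39. At day 28 the glucocorticoid list was not higher at 162 µg alone. Its group mean was 0.72 at 18 µg and 0.62 at 54 µg of day 28, and 0.79 in the control lungs of day 1. At day 1 its group mean was highest at 162 µg, at 1.15, against 0.78 at 18 µg and 0.79 at 54 µg. Single lungs of day 1 overlapped, at 0.93 to 1.44 at 162 µg and 0.57 to 1.29 in control. The part of cell numbers, handling or stress hormones in the values of the 9 regulators was not tested.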

How the data were processed

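Lung RNA (Cy5) and a reference RNA (Cy3) were hybridised together on 36 two-colour Agilent arrays, with dyes never swapped. Arrays sharing sample number and group were read as 1 mouse (29 mice, 7 on 2 arrays) and averaged. The scanner images were read with Feature Extraction 11.0.1.1 of Agilent, per the file headers, and the deposited files give spot and background intensities. The deposited LogRatio column is the scanner software's log10 ratio. The authors' deposited value table holds log2 ratios whose normalization is not given in the sources used here (r = 0.986 to 0.997 with the values computed here, medians -0.039 to -0.017 per array). Per array, 48.6% to 62.2% of the 55681 probes gave a Cy5 signal well above background, and none was saturated.

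Median intensities were background corrected with normexp (offset 50) and loess normalized within arrays (limma 3.58.1, R 4.3.3, the data.table package at version 1.17.8), and the highest-signal probe per gene was kept. Probes were named through RefSeq accessions (28026 probes, 21154 symbols). Genes were kept if well above background on all arrays of 3 or more mice in some group, and were tested in 1 limma model with 8 group means (21 residual degrees of freedom), two-sided, with Benjamini-Hochberg adjustment within each comparison and a threshold of 0.05. Arrays were scanned on 5 slides in 3 sessions, and slide entered as an alternative block. Replicate numbers were given in accession order and pair no mice. The script was tested on simulated data. The alternatives are given in the closing section.

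The 9 members, the pathway and marker lists and the rule for named genes (up to 3 genes past the threshold per list, otherwise the 1 of lowest p, and 3 genes of highest correlation) were chosen with earlier results of these data known. Values by this rule are given for 162 µg on both days and in part for 54 µg at day 1. The plan named mean spot signals, and the files hold medians, which were used.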

Additional observations from a re-analysis of the deposited data

Results flagged for a closer look

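In 45 sets of 4 mice (a member in a group), the highest or lowest mouse was judged by Dixon's gap ratio. This ratio is the gap to the nearest mouse over the range of all 4. It was held to the 95% level, which chance alone passes in about 1 of 20 sets. It was passed in 2. Nfkb2 in replicate 3 of 162 µg at day 28 was low, at -1.24 against -0.93 to -0.87 in the other 3 mice. Osmr in replicate 3 of 162 µg at day 1 was low, at -0.59 against 0.02 to 0.13 in the others, and this is the mouse with a muscle array in its group. Without it the log2 change of Osmr was 0.84 in place of 0.67. No member's change differed between the days at an adjusted p under 0.05.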

How the results depend on the processing

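No paired analysis was possible because replicate numbers were given in accession order and pair nothing; slides, which held arrays of several groups, entered as a block instead. Of the settings tried, no call changed sign. The counts are members past the threshold, of 9, by limma. For 162 µg against control at day 1 (3) they were 5 with all arrays and mouse as a random block, 7 with array quality weights, 2 with the deposited table, the scanner's log ratio, no dim-probe filter, the muscle and squamous covariates or no muscle arrays, 0 with median centring, 0 with only the compared groups in the fit and 1 to 6 with 1 mouse left out. Tnfaip3 kept its call whichever mouse was left out (adjusted p 0.000308 to 0.00308), Relb lost it without any but replicate 3 of 162 µg, and Osmr lost it without either of control replicates 1 and 2 or 162 µg replicates 1, 2 and 4. For 54 µg against control at day 1 (0) they were 1 with the random block and 3 with weights, and for 162 against 54 µg at day 1 (0) 2 with weights. For 162 against 18 µg at day 1 (1) they were 2 with the random block, 7 with weights, 0 with median centring, 0 with only the compared groups, 2 with the muscle and squamous covariates, 3 without muscle arrays and 0 to 3 with 1 mouse left out. For 162 µg against control at day 28 (0) they were 1 with the random block (Tnfaip3), 3 with weights (Tnfaip3, Relb and Osmr), 2 with only the compared groups (Relb and Osmr), 1 with the covariates (Tnfaip3), 1 without muscle arrays of other groups (Osmr) and 0 with 1 mouse left out. For 162 against 54 µg at day 28 (2) they were 6 with weights, 3 with the random block, the mean of all probes or slide as a block (Relb added), 2 with the scanner's log ratio (Relb in place of Osmr), 1 when the mouse with 2 day labels was moved to day 1, 0 with it left out, with median centring, with only the compared groups, with the covariates or without muscle arrays, and 0 to 3 with 1 mouse left out. For 162 against 18 µg at day 28 (1) they were 2 with weights, the mean of all probes or no muscle arrays, 1 with the random block (Relb in place of Bcl3), 0 with the deposited table, the scanner's log ratio, median centring, slide as a block, only the compared groups, or the mouse of conflicting labels moved or left out, and 0 to 1 with 1 mouse left out. The cause of these shifts was not tested.

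Over all genes, 395 passed for 162 µg against control at day 1, and 838 with the random block, 3271 with weights, 169 with median centring, 38 with only the compared groups, 614 with the covariates and 194 to 821 with 1 mouse left out. At day 28, 147 passed, and 584 with weights, 88 with the scanner's log ratio and 65 to 127 with 1 mouse left out. Median centring moved the median of all genes by over 0.1 in 5 comparisons, most for 54 µg against control at day 1 (0.23). With 3 or 4 mice per group the number of arrays limits the precision, and the consensus correlation of arrays of 1 mouse was -0.03, so repeat arrays were no more alike than different mice of a group and reading them as 1 mouse is in doubt.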
